A study of Oryctolagus cuniculus with 34 samples.

Results

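The genes described here are 344 of the 23669 genes in a table of RNA-seq counts from rabbit supraspinatus muscle, chosen because they were higher in repaired than in control muscle at 1 and 2 weeks after rotator cuff repair and close to control at 8 weeks. The measure behind the choice was the log2 ratio of repair over control within each rabbit, log2((CPM repair + 1)/(CPM control + 1)), where CPM (counts per 1000000) is a gene's count scaled to a common library total, averaged over the rabbits of a time point. A member had a mean CPM of at least 2 over the libraries, a mean log2 ratio of at least 0.8 at 1 week and at 2 weeks, and at most 0.25 at 8 weeks. Of the 10052 genes with a mean CPM of at least 2, 1221 met the early minimum, 876 of these stayed above the 8-week limit, and 1 more (ITGAM) was left out by name. The values at 1, 2 and 8 weeks chose the members, so they are given below as a description with no test. The tests compare repair with control at 4 weeks, whose libraries entered the choice only through the mean CPM over all libraries. The main test takes the spread of each gene from the libraries of all times. The values that chose the members thus enter the 4-week p-values through that spread.

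The study followed the transcriptome of a chronically torn and then repaired rotator cuff muscle in female New Zealand White rabbits about 6 months old. In every rabbit the left supraspinatus tendon was cut, left for 8 weeks and then repaired, and the right supraspinatus of the same rabbit was the control, a shoulder that the labels describe as a sham with a skin cut and the study's methods as unoperated. Both shoulders were sampled post-repair in 17 animals and gave 34 libraries, with 4 animals each for the 1-, 4- and 8-week time points and 5 for the 2-week time point. No group was repaired without the 8 weeks of tenotomy or left torn without repair, so the contrast of repair and control holds both, together with any effect of the operated limb on the other side. The 1- and 8-week libraries carry one series of names and the 2- and 4-week libraries another, so a difference between those pairs of times cannot be told apart from a difference between the series. Totals ran from 9220035 to 28395188 counts in the 33 libraries used (median 12127768). The repair library of rabbit 3 (8 weeks), which the authors filtered out, stood apart, with a correlation of 0.620 to the mean of the other 8-week repair libraries where each of these reached at least 0.962, and its pair was not used in the ratios.

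After a tendon is cut and reattached, its muscle goes through a wave of tissue remodelling in which leukocytes enter, vessels and basement membranes are rebuilt, and fibroblasts and fibro-adipogenic cells lay down and trim matrix. Much of the RNA of such genes comes from cells between the fibers rather than from the fibers themselves. The libraries were made from whole muscle, so more cells of a type and more RNA per cell cannot be told apart.

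Across the 344 genes, the median log2 ratio was 1.05 at 1 week, with a range of 0.80 to 3.92. It was 1.07 at 2 weeks (range 0.80 to 2.27), 0.76 at 4 weeks (range 0.0027 to 1.80) and 0.15 at 8 weeks (range -0.32 to 0.25). All genes with a mean CPM of at least 2 had medians of 0.36, 0.20, 0.24 and 0.07 at the same times. The 876 early genes that were not back at 8 weeks had medians of 1.43, 1.36, 1.04 and 0.47. At 4 weeks 150 members were still at 0.8 or more (43.6%, against 9.11% of the 12937 genes tested there), 183 lay between 0.25 and 0.8, and 11 were at 0.25 or less. For 305 members the 4-week ratio was below the mean of the early ratios, by a median of 0.35 over all members, and the members had been chosen on the early values.

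On plain CPM the ratios lay above 0 for most genes at 4 weeks (78.0% of the genes tested). The 10 most abundant genes took 25% to 30.9% of the counts in control and 17% to 30.3% in repair libraries, and their part in the ratios was not tested. With TMM scaling, which sets the libraries to a common center, the median of all genes fell by 0.41, 0.28, 0.27 and 0.08 at 1, 2, 4 and 8 weeks, and the members' medians became 0.66, 0.79, 0.51 and 0.08. Relative to all genes, the members stood 0.70, 0.87, 0.55 and 0.08 higher on the TMM scale, and 0.68, 0.87, 0.53 and 0.07 higher on plain CPM. On the TMM scale 68 members met the early minimum at both times and 61 met the whole rule.

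**Figure D1:**
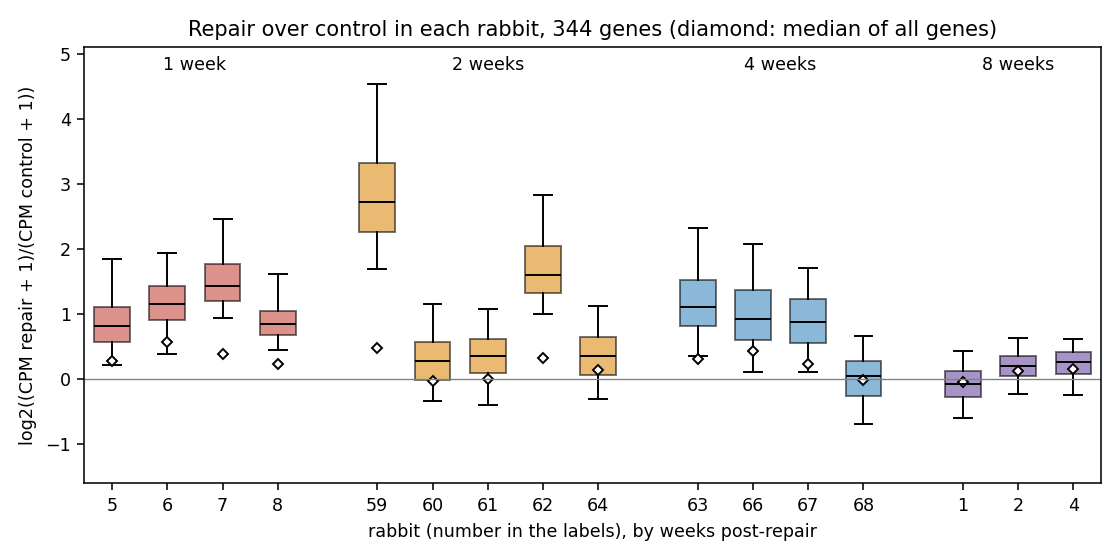
Log2 ratio of repair over control of the 344 genes in each of the 16 rabbits used, with rabbits on the horizontal axis grouped by weeks post-repair. Boxes span the quartiles with the median as a line, whiskers the 5th to 95th percentiles, and diamonds mark the median of all genes with a mean CPM of at least 2. Rabbits 59 and 62 stand far above the other 3 rabbits of 2 weeks, and rabbit 68 lies near 0 at 4 weeks.

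The rabbits of a time point did not move alike. At 1 week the members' median log2 ratio was 0.82, 1.16, 1.43 and 0.84 in rabbits 5, 6, 7 and 8. At 2 weeks it was 2.73, 0.29, 0.36, 1.61 and 0.36 in rabbits 59, 60, 61, 62 and 64. The 2-week means therefore came mainly from rabbits 59 and 62. Of the 344 members, 218 reached 0.8 in 2 of the 5 rabbits and 3 reached it in all 5. Without rabbit 59 the 2-week median was 0.66 and 90 members stayed at 0.8 or more; without rabbit 62 the median was 0.95 and 254 members stayed there. Without both rabbits the median was 0.35 over 3 rabbits, and 24 members were at 0.8 or more. At 1 week 331 members were higher in the repaired muscle of all 4 rabbits, and at 2 weeks 176 were higher in all 5. These values chose the members. The share of all genes higher in every rabbit of a time at once is not given here, so the 331 and 176 have no like background. Of all genes with a mean CPM of at least 2, 73.7% to 83.8% were higher in repaired muscle in single rabbits of 1 week. At 2 weeks the share was 69.5%, 46.3%, 50.7%, 74.4% and 62.9% in rabbits 59, 60, 61, 62 and 64.

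At 4 weeks the median was 1.12, 0.93, 0.88 and 0.05 in rabbits 63, 66, 67 and 68, so 3 rabbits were alike and rabbit 68 was near control. At 8 weeks it was -0.07, 0.20 and 0.27 in rabbits 1, 2 and 4.

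The levels of the members on each side are given as a description, since the rule used these libraries and favors genes whose repair level falls, or whose control level rises, between 1 and 8 weeks. The 1- and 8-week libraries share a series. From 1 to 8 weeks the median member changed in repaired muscle by a log2 level difference of -0.72 (343 of 344 lower). The median of all genes there was -0.32 (83.5% lower). In the control muscles the median member was higher at 8 than at 1 week by 0.24 (306 of 344 higher). The median of all genes in control was -0.01 (47.4% higher). The mean log2(CPM + 1) over the members was 3.74 ± 0.35 (SD, n = 4) in repaired and 2.61 ± 0.09 (SD, n = 4) in control muscle at 1 week. At 8 weeks it was 2.97 ± 0.26 (SD, n = 3) in repaired and 2.82 ± 0.15 (SD, n = 4) in control muscle. On the TMM scale the same levels were 3.45 and 2.70 at 1 week and 2.98 and 2.92 at 8 weeks. Between 2 and 4 weeks, the other pair of times in one series, the median member changed by -0.38 in repaired muscle (313 of 344 lower), where the median of all genes was -0.05 (57.5% lower). In the control muscles it changed by -0.02 (181 of 344 lower), where the median of all genes was -0.07 (62.7% lower), and the 2-week values had chosen the members too.

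**Figure D2:**
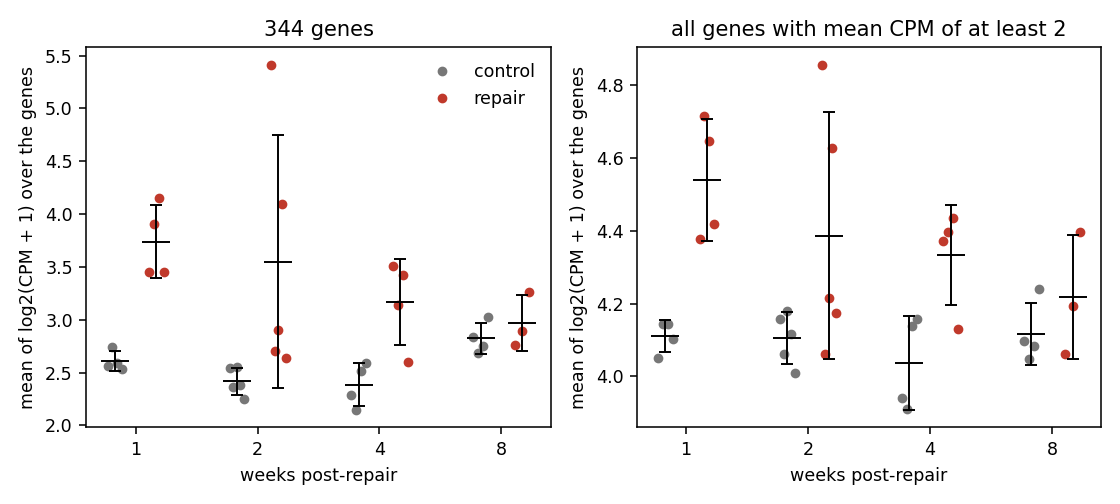
Mean of log2(CPM + 1) over the 344 genes (left) and over all genes with a mean CPM of at least 2 (right) in each library, by weeks post-repair on the horizontal axis; the vertical axes have different ranges. Gray points are control and red points repair libraries, and the bars give the mean and SD. The members' control level runs from 2.53 to 2.74 at 1 week and from 2.69 to 3.02 at 8 weeks, while the repair level runs from 3.45 to 4.15 and from 2.76 to 3.26.

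A symbol was at hand for 162 of the 344 members (47.1%, against 28.5% of all genes with a mean CPM of at least 2), and for 95 of these it came from the table of network modules alone, so the members with a name are not a random draw. The 51 members picked by the rule for named genes had median log2 ratios of 1.17, 1.33, 0.88 and 0.16 at 1, 2, 4 and 8 weeks. The other 111 with a symbol had medians of 0.98, 1.04, 0.74 and 0.14, and the 182 without a symbol had 1.07, 1.05, 0.73 and 0.15. The largest ratio at 1 week belonged to a gene without a symbol, ENSOCUG00000024541. Its CPM was 1.19, 2.79, 1.87 and 4.56 in control and 30.8, 22.2, 179.8 and 50.8 in repaired muscle at 1 week, with no overlap between the sides at this time, which chose it. At 4 weeks the sides overlapped, and the log2 ratio of rabbit 68 was -1.21. The limma-voom log2 fold change there was 1.46 (standard error 0.93, adjusted p = 0.438).

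At 4 weeks post-repair compared to control, none of the 344 members passed limma-voom's test with Benjamini-Hochberg adjustment over 12937 genes, where 0.0773% of all genes tested were called higher (10 genes) and 0.0464% lower (6 genes). The lowest adjusted p among the members was 0.0854. The log2 fold change (log2FC) was above 0 for 335 of 344 members (97.4%, against 54.1% of all genes tested), with a median of 0.68 where all genes had 0.05. At an unadjusted p under 0.05, 81 members were higher (23.5%, against 8.76% of all genes) and 0 were lower (against 7.15%). With the rabbit as a block, which takes the 2 shoulders of an animal as a pair, 21 members were called higher (6.1%, against 1.82% of all genes), and the median log2FC over all 344 members was again 0.68. The other tools called 18 members (edgeR quasi-likelihood, background 1.71%), 37 (DESeq2, 3.17%), 64 (limma-voom with sample quality weights, 4.77%) and 7 (limma-voom with an estimated correlation within rabbits, 0.734%). Leaving out the repair library of rabbit 68 gave 19 called members (background 1.69%), and so did leaving out the 2-week repair library of rabbit 59 (1.49%). The values of that 2-week library enter the common estimate of the spread. Without it, 12514 genes passed the filter and were tested. The reason for the added calls was not tested.

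Counted by rabbit on the TMM scale, 160 members were higher in the repaired muscle of 4 of 4 rabbits (46.5%, against 13.2% of all genes tested), and 67 had every repair library above every control library (19.5%, against 4.99%). In rabbits 63, 66 and 67, which were looked at together after their values were seen, 276 members were higher in each (80.2%, against 24.1%). On plain CPM, where most genes lie above 0, these counts were 178 (background 26.6%), 103 (11.4%) and 319 (50.7%).

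Markers of cell types were summed on plain CPM, on which 78.0% of the genes tested lay above 0 at 4 weeks, and not on the TMM scale. At 4 weeks the endothelial, adipocyte and smooth muscle sums did not overlap between the sides. The fibroblast, macrophage, tendon and skeletal muscle sums did. On the same scale, 11.4% of the single genes tested had every repair library above every control library at 4 weeks. The summed CPM of the 6 measured of 7 fibroblast markers (PDGFRA, DCN, COL1A1, COL1A2, COL3A1 and DPT) ran from 450 to 1065 in control and from 758 to 5545 in repaired muscle at 4 weeks. At 2 weeks their sum ran from 652 to 1156 in control and from 582 to 85377 in repaired muscle (median 1801). The 6 measured of 9 macrophage markers (CD163, MRC1, CSF1R, ITGAM, C1QB and C1QC) summed to 4.25 to 18.2 in control and 2.83 to 50.4 in repaired muscle at 4 weeks, and at 2 weeks to 6.22 to 663 in repaired muscle. The 3 measured of 5 endothelial markers summed to 133 to 182 in control and 193 to 223 in repaired muscle at 4 weeks, and of these VWF is itself a member. VWF alone ran from 82.6 to 119 in control and from 122 to 146 in repaired muscle. Its sides overlapped on the TMM scale. ADIPOQ (adiponectin), the 1 measured of 6 adipocyte markers, ran from 56.2 to 161 in control and from 282 to 555 in repaired muscle at 4 weeks, with no overlap. The 3 measured of 5 smooth muscle and pericyte markers (ACTA2, RGS5 and CSPG4) did not overlap at 4 weeks either, with sums of 65.2 to 108 in control and 123 to 184 in repaired muscle. The 2 measured of 4 tendon markers (MKX and THBS4) summed to 15.9 to 26.7 in control and 170 to 356 in repaired muscle at 1 week. At 2 weeks they summed to 13.9 to 30.6 in control and 6.97 to 2514 in repaired muscle (median 99.4). At 4 weeks the tendon sums were 7.48 to 26.2 in control and 14.5 to 180 in repaired muscle. By 8 weeks they were 26.6 to 147 in control and 129 to 552 in repaired muscle. The 2 measured of 10 skeletal muscle markers, TNNT3 and DES, were abundant in every library, from 11048 to 21028 in control and 10204 to 15845 in repaired muscle at 4 weeks. Their lowest sums in repaired muscle were 4403 at 1 week and 5383 at 2 weeks, where the lowest in control muscle were 10385 and 9095. The median sums were close, at 11022 in repaired and 11441 in control muscle at 1 week. At 2 weeks they were 10747 and 10997. No marker of T cells, B cells, Schwann cells, satellite cells or erythroid cells had a symbol to match. The part of cell content in the members' ratios was not tested.

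**Figure D3:**
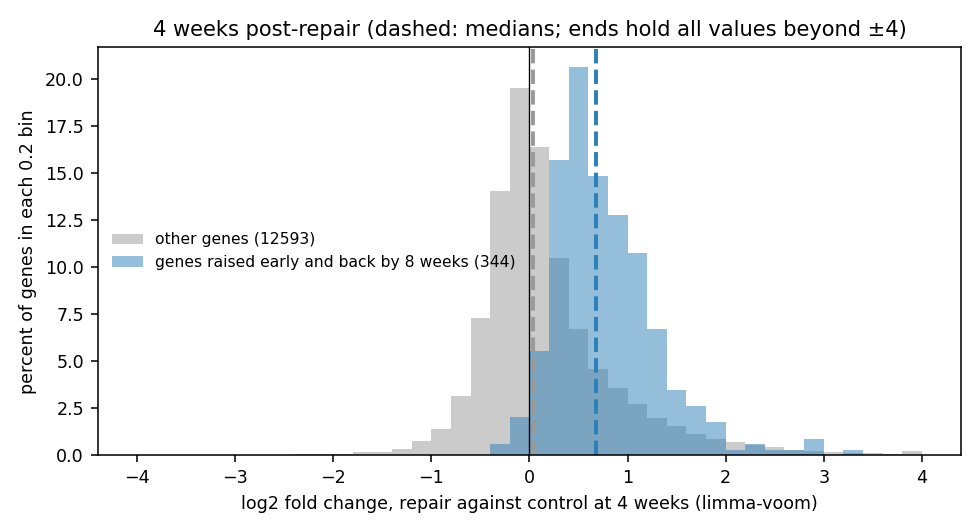
Distribution of the limma-voom log2 fold change of repair against control at 4 weeks post-repair, for the 344 genes (blue) and the other genes tested (gray), as the percent of genes of each set in bins of 0.2. Dashed lines mark the medians. The members' median is 0.68 and 335 of the 344 lie above 0.

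In what follows, CPM is given in order of rabbit number, which is 5, 6, 7 and 8 at 1 week, 59, 60, 61, 62 and 64 at 2 weeks, and 63, 66, 67 and 68 at 4 weeks. Log2 ratios are on plain CPM, and log2FC, its standard error (SE) and the adjusted p are from limma-voom at 4 weeks, on TMM scaling. Where the sides are said not to overlap at 1 week, the values had chosen the gene. Such statements are description only, and no share of all genes is given beside them. Gene lists for known roles were used to order the members, and a gene counts as measured where it had a symbol and passed the filter on low counts. At an unadjusted p under 0.05 in limma-voom, the genes higher in repair at 4 weeks were 4 of 16 in the basement membrane list, 4 of 16 fibrillar collagen genes, 7 of 33 matrix glycoproteins, 5 of 19 proteases, 6 of 28 adhesion genes, 2 of 19 vascular, 2 of 26 myeloid and 0 of 4 lymphocyte genes. They were 4 of 9 cytokine genes, 4 of 29 in the TGF-beta and Wnt list, 3 of 22 growth factor genes (1 was lower), 2 of 21 cytoskeletal, 1 of 15 cell cycle and 3 of 14 lysosomal genes. Over all genes tested the share was 8.76%, and the vascular, myeloid, cytoskeletal and cell cycle counts lay near it. That share is over genes with and without a symbol, while every listed gene has one, so the 2 are not fully alike.

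Among the 16 measured genes of basement membranes and other nonfibrillar collagens, 5 were members: COL6A6, HSPG2, NID2 and a pair of entries that carry the symbol NID1. At 4 weeks 0 of the 16 were called in either direction, all 16 had a log2FC above 0, and with the rabbit block 1 (NID2) was called higher. COL6A6 is a chain of collagen VI, the microfibrillar collagen around muscle fibers. Its CPM at 1 week was 0.940, 3.46, 2.71 and 1.43 in control and 6.06, 18.5, 57.7 and 9.83 in repaired muscle of rabbits 5, 6, 7 and 8, and every repaired muscle was above every control. Its 2-week values were 5.58, 1.60, 1.62, 1.26 and 0.847 in control and 70.6, 0.893, 4.05, 71.5 and 0.730 in repaired muscle of rabbits 59, 60, 61, 62 and 64. Only rabbits 59 and 62 were far above the controls, and the log2 ratio was 2.53 ± 0.98 (SD, n = 4) at 1 week and 1.77 ± 2.37 (SD, n = 5) at 2 weeks, or 1.35 at 2 weeks without rabbit 59. At 4 weeks COL6A6 stood at 0.631, 0, 1.66 and 3.24 in control and 17.2, 6.96, 7.34 and 1.22 in repaired muscle of rabbits 63, 66, 67 and 68, higher in 3 of 4 rabbits (log2FC 2.87, SE 1.92, adjusted p = 0.467).

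NID2 encodes nidogen-2, a linker of laminin and collagen IV networks. At 1 week its CPM was 12.8, 18, 14.4 and 17.5 in control and 29.4, 92.6, 80.2 and 55.6 in repaired muscle, without overlap. At 4 weeks it was 7.03, 11.6, 19.1 and 13.8 in control and 38.9, 48, 62.5 and 16.2 in repaired muscle, higher in 4 of 4 rabbits with rabbit 68 inside the range of the controls. The log2FC at 4 weeks was 1.34 (SE 0.43, adjusted p = 0.143); with the rabbit block the adjusted p was 0.0413, and over the alternatives the adjusted p ran from 0.00331 to 0.390. By 8 weeks the CPM was 22.4, 24.9, 22.1 and 21.8 in control (rabbits 1, 2, 3 and 4) and 18.5, 30.1 and 32.8 in repaired muscle (rabbits 1, 2 and 4), and the sides overlapped.

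HSPG2 encodes perlecan, the large heparan sulfate proteoglycan of basement membranes. At 4 weeks its CPM was 171, 176, 271 and 296 in control and 414, 449, 425 and 192 in repaired muscle, higher in rabbits 63, 66 and 67 and lower in rabbit 68 (log2FC 0.39, SE 0.33, adjusted p = 0.570). The NID1 entry ENSOCUG00000022385 stood at 5.05, 4.74, 8.18 and 7.38 in control and 10.8, 13.8, 11.8 and 8.87 in repaired muscle at 4 weeks, and every repaired muscle was above every control on plain CPM. The same held for the other NID1 entry, whose CPM was 11.4, 13.8, 9.63 and 14.2 in control and 27.4, 21.5, 22.9 and 21.2 in repaired muscle; its log2FC of 0.66 (SE 0.49, adjusted p = 0.517) missed the test. How counts were divided between these 2 entries is uncertain where they share sequence.

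Of 16 measured genes of fibrillar collagens and their assembly, 2 were members, COL5A3 and CRTAP. All 16 had a log2FC above 0 at 4 weeks, and 0 were called with or without the block. COL5A3 encodes a chain of collagen V, which nucleates and limits the width of collagen I fibrils. Its CPM at 1 week was 50, 48.6, 56.2 and 16.5 in control and 90.6, 179, 194 and 63.7 in repaired muscle. At 2 weeks it was 37.4, 17.6, 25.6, 13 and 20.6 in control and 510.0, 35.3, 31.2, 99.7 and 40.8 in repaired muscle. Rabbit 59 had the highest of these values by far, while the other 4 repaired muscles lay within the control range or less far above it, and the 2-week log2 ratio of 1.75 ± 1.46 (SD, n = 5) became 1.26 without rabbit 59. At 4 weeks COL5A3 stood at 16.9, 14, 47 and 67.7 in control and 133, 67.4, 130.0 and 46.4 in repaired muscle, higher in 3 of 4 rabbits, with overlap (log2FC 1.26, SE 0.55, adjusted p = 0.268). At 8 weeks the log2 ratio was 0.021 ± 0.28 (SD, n = 3). CRTAP encodes a partner of the collagen prolyl 3-hydroxylase, and its 4-week log2 ratio was 0.43 ± 0.60 (SD, n = 4), with rabbit 68 at -0.47 and the other 3 rabbits at 0.68 or more.

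Among 33 measured matrix glycoproteins and proteoglycans, 2 were members, CCN3 and EMILIN2, and 0 were called at 4 weeks; 3 were called higher with the block (DPT, EFEMP1 and OGN), none of them a member. CCN3 encodes a secreted matricellular protein of the CCN family, and its log2 ratio was 1.20 ± 1.07 (SD, n = 4) at 1 week, 1.48 ± 2.18 (SD, n = 5) at 2 weeks and 1.09 ± 1.73 (SD, n = 4) at 4 weeks. EMILIN2 encodes an elastin microfibril interface protein, with 1.10 ± 0.30 (SD, n = 4), 1.53 ± 2.08 (SD, n = 5) and 1.22 ± 1.49 (SD, n = 4) at the same times. In both genes the SD at 4 weeks was larger than the mean ratio. TNN, tenascin-N, reached a CPM of 255 in the repaired muscle of rabbit 59 at 2 weeks, while the other 4 repaired muscles of that time lay between 0.0893 and 2.35 and the controls between 0 and 0.406. Its 2-week log2 ratio was 1.93 ± 3.20 (SD, n = 5), and 0.53 without rabbit 59.

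Of 19 measured matrix proteases and their inhibitors, 4 were members, all of the ADAM and ADAMTS families; at 4 weeks 0 of the 19 were called, and with the block 2 were called higher (ADAMTS5 and ADAMTSL1, the latter not a member). ADAMTS5 encodes an aggrecanase that also cuts versican. Its CPM at 4 weeks was 1.89, 0.831, 1.37 and 2.33 in control and 8.03, 8.38, 8.41 and 3.09 in repaired muscle. Every repaired muscle was above every control, and rabbits 63, 66 and 67 were almost equal. The log2FC was 1.82 (SE 0.50, adjusted p = 0.0959); the block gave an adjusted p of 0.0475, and the alternatives ran from 0.000728 to 0.288. At 8 weeks ADAMTS5 was at 4.86, 5.06, 5.18 and 5.94 in control and 3.77, 7.15 and 8.76 in repaired muscle, a log2 ratio of 0.21 ± 0.44 (SD, n = 3).

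ADAM19, a membrane-anchored metalloprotease, stood at 0.721, 0.277, 1.17 and 2.33 in control and 6.94, 6.12, 5.03 and 2.06 in repaired muscle at 4 weeks, higher in 3 of 4 rabbits (log2FC 2.05, SE 0.94, adjusted p = 0.289). ADAMTS9, another versican-cleaving protease, had a log2 ratio of 1.27 ± 0.81 (SD, n = 4) at 1 week and 1.28 ± 1.02 (SD, n = 5) at 2 weeks, but its CPM at 4 weeks was 4.51, 3.78, 3.23 and 6.88 in control and 4.56, 6.87, 3.79 and 4.97 in repaired muscle. The sides overlapped, and the direction turned with the scale, from a mean log2 ratio of 0.13 on plain CPM to a log2FC of -0.13 (SE 0.51, adjusted p = 0.919). It was 1 of 9 members with a log2FC below 0 at 4 weeks, of which 5 have a symbol; the others are GALNT15, CNRIP1, LUZP1 and WLS, named here after their values were seen.

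**Figure D4:**
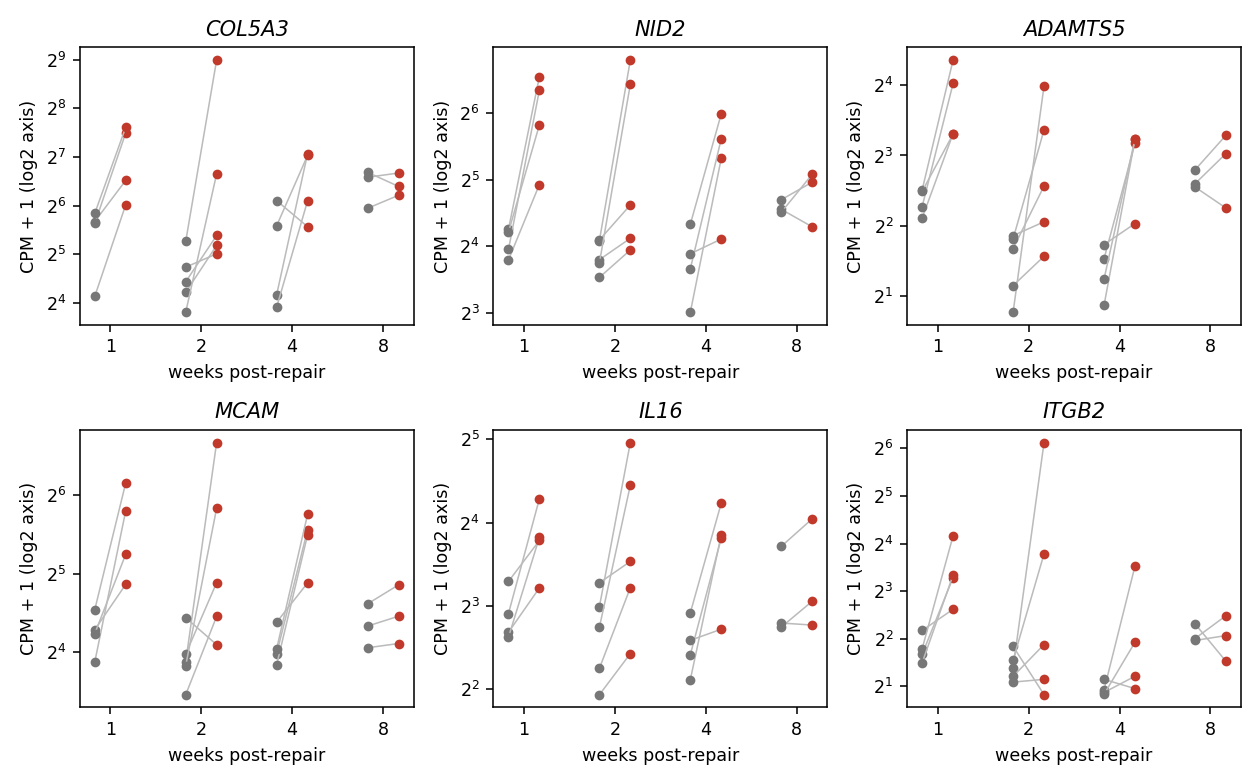
CPM + 1 on a log2 axis for 6 members in the control (gray) and repaired (red) muscle of each rabbit, joined by a line, at 1, 2, 4 and 8 weeks post-repair (rabbit 3 not shown). For ADAMTS5 and MCAM every repaired muscle lies above every control at 4 weeks, while for COL5A3, NID2, IL16 and ITGB2 the sides overlap there.

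Of 28 measured integrins and adhesion molecules, 3 were members and 0 were called at 4 weeks with or without the block, with 27 of 28 above 0. ITGA6 and ITGB4 encode the 2 subunits of the laminin receptor of hemidesmosomes. ITGA6 stood at 16.9, 16.3, 20.6 and 19.7 in control and 35.9, 36.2, 33.6 and 30.9 in repaired muscle at 4 weeks, every repaired muscle above every control (log2FC 0.63, SE 0.27, adjusted p = 0.259). ITGB4 was at 4.06, 1.85, 5.29 and 4.15 in control and 11.8, 8.85, 18 and 6.84 in repaired muscle, again without overlap (log2FC 1.3, SE 0.59, adjusted p = 0.277). CADM3, a cell adhesion molecule best known from neurons, was higher in 2 of 4 rabbits at 4 weeks, with a log2 ratio of 0.62 ± 1.09 (SD, n = 4).

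Among 19 measured vascular genes 3 were members, MCAM, VWF and APLNR; 0 of the 19 were called at 4 weeks, and with the block 1 (MCAM) was called higher. MCAM encodes CD146, an adhesion molecule of endothelial cells and pericytes. At 1 week its CPM was 18.5, 22.3, 13.7 and 17.8 in control and 28.1, 70.3, 54.7 and 37 in repaired muscle, without overlap. At 4 weeks it was 14.8, 13.3, 15.5 and 19.8 in control and 46.1, 44.1, 53 and 28.5 in repaired muscle, again without overlap, with rabbit 68 the lowest of the repaired muscles. The log2FC was 1.15 (SE 0.30, adjusted p = 0.0871); with the block the adjusted p was 0.0447, and over the alternatives it ran from 0.00684 to 0.264. At 8 weeks MCAM stood at 19.1, 15.6, 13.2 and 23.5 in control and 21, 16.3 and 28 in repaired muscle, and the sides overlapped.

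VWF, the von Willebrand factor of endothelium and platelets, was at 119, 86.7, 82.6 and 88.9 in control and 146, 122, 122 and 124 in repaired muscle at 4 weeks. The sides did not overlap on plain CPM but did on the TMM scale, and the log2FC was 0.19 (SE 0.31, adjusted p = 0.782). APLNR encodes the apelin receptor of endothelial cells; its CPM at 4 weeks was 6.94, 3.78, 4.31 and 5.57 in control and 10.8, 8.47, 7.17 and 10.5 in repaired muscle, higher in 4 of 4 rabbits (log2FC 0.57, SE 0.38, adjusted p = 0.471). For APLNR, too, the sides overlapped on the TMM scale only.

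Of 26 measured macrophage and myeloid genes 5 were members, and of 4 measured lymphocyte genes 2; 0 of either list were called at 4 weeks with or without the block, and 24 of the 26 and 3 of the 4 had a log2FC above 0. MPEG1 encodes perforin-2, a pore-forming protein of phagocytes. At 1 week it stood at 1.13, 3.15, 1.58 and 0.846 in control and 9.31, 2.49, 24 and 7.14 in repaired muscle, with rabbit 6 lower in repair. At 2 weeks its CPM was 0.304, 0.282, 0.191, 0.679 and 0 in control and 77.8, 0.804, 0.193, 18.8 and 0.487 in repaired muscle. Rabbits 59 and 62 alone were far above the controls, and the log2 ratio was 2.11 ± 2.55 (SD, n = 5) at 2 weeks, 1.16 there without rabbit 59, and -0.25 ± 0.67 (SD, n = 3) at 8 weeks.

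ITGB2, the beta subunit of the leukocyte integrins, repeated this picture, with 1.62, 1.32, 2.58, 1.94 and 1.13 in control and 68.7, 2.68, 0.772, 12.8 and 1.22 in repaired muscle at 2 weeks (0.48 as a log2 ratio without rabbit 59, 1.33 ± 2.23 (SD, n = 5) with it). At 4 weeks it was at 0.902, 0.831, 0.783 and 1.21 in control and 10.5, 1.32, 2.80 and 0.937 in repaired muscle, and rabbit 63 was the highest (log2FC 1.09, SE 1.24, adjusted p = 0.683). CD48, a surface receptor of lymphocytes and other leukocytes, stood at 0.902, 0.646, 1.08 and 0.911 in control and 7.92, 2.35, 2.97 and 1.22 in repaired muscle at 4 weeks, without overlap (log2FC 1.38, SE 0.93, adjusted p = 0.471). CD53, a leukocyte tetraspanin, and ARHGAP30, a GTPase-activating protein of blood cells, had 4-week log2 ratios of 0.82 ± 1.57 (SD, n = 4) and 0.88 ± 1.10 (SD, n = 4). LCP1, the leukocyte actin-bundling protein L-plastin, had log2 ratios of 1.17 ± 0.84 (SD, n = 4), 2.06 ± 2.21 (SD, n = 5), 0.82 ± 0.81 (SD, n = 4) and 0.11 ± 0.39 (SD, n = 3) at 1, 2, 4 and 8 weeks. MPEG1, ITGB2, CD48 and LCP1 were under 3 CPM in every 4-week library except the repair library of rabbit 63, so few counts stand behind them. The 4-week SD of MPEG1, ITGB2, CD53 and ARHGAP30 was larger than the mean ratio.

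**Figure D5:**
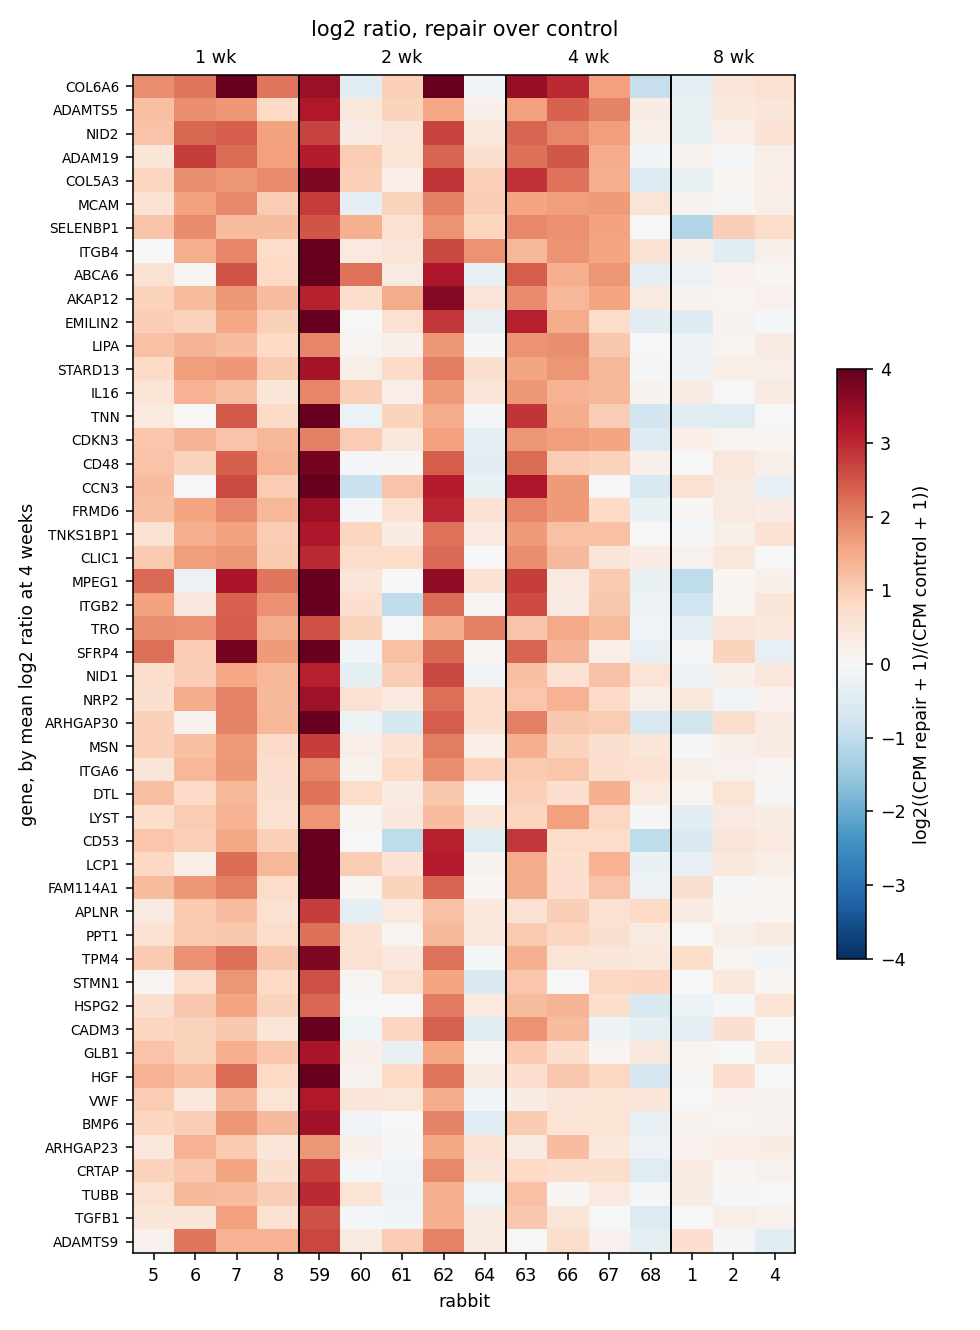
Log2 ratio of repair over control for 50 of the 51 members picked by the rule for named genes (rows, by their mean 4-week ratio) in each of 16 rabbits (columns, by weeks post-repair); the color scale ends at -4 and 4. Rabbits 59 and 62 hold the darkest columns at 2 weeks, the columns of rabbits 60, 61 and 64 are pale, and rabbit 68 differs from the other 3 rabbits of 4 weeks.

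Secreted signals and their receptors made up a further group. Of 29 measured genes of TGF-beta, BMP, activin and Wnt signaling 3 were members; 0 were called at 4 weeks, and with the block 1 (CHRDL1, not a member) was called higher. SFRP4, a secreted Wnt-binding protein, stood at 1.32, 1.29, 1.51 and 1.37 in control and 9.59, 3.59, 34.4 and 6.63 in repaired muscle at 1 week, without overlap. By 4 weeks it was at 0.0902, 0.0923, 0.979 and 0.607 in control and 4.45, 1.79, 1.40 and 0.281 in repaired muscle, higher in 3 of 4 rabbits at a low level (log2FC 1.78, SE 1.71, adjusted p = 0.624). BMP6, a bone morphogenetic protein, had log2 ratios of 1.22 ± 0.40 (SD, n = 4) at 1 week, 0.95 ± 1.65 (SD, n = 5) at 2 weeks and 0.45 ± 0.58 (SD, n = 4) at 4 weeks. TGFB1, the ligand TGF-beta 1, only just met the early minimum, with 0.80 ± 0.56 (SD, n = 4) and 0.81 ± 1.14 (SD, n = 5); its 4-week CPM was 1.35, 1.38, 2.06 and 1.82 in control and 4.01, 2.35, 2.06 and 0.937 in repaired muscle, with a log2FC of 0.062 (SE 0.51, adjusted p = 0.964) that changed sign without the repair library of rabbit 63 (-0.21).

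Among 22 measured growth factors and receptors 2 were members, HGF and NRP2, and 1 of the 22 was called higher at 4 weeks with and without the block (ANGPT1, not a member). HGF encodes hepatocyte growth factor, an activator of satellite cells; its CPM was 0.251, 1.40, 0.845 and 0.651 in control and 2.31, 4.52, 7.70 and 1.89 in repaired muscle at 1 week, without overlap. In rabbit 59 it reached 38.1 at 2 weeks, where the other 4 repaired muscles lay between 1.25 and 5.56, and its 2-week log2 ratio of 1.70 ± 2.01 (SD, n = 5) was 0.87 without that rabbit. NRP2, a co-receptor for semaphorins and VEGF family ligands, stood at 7.12, 4.15, 8.71 and 7.18 in control and 16.4, 12.5, 15.6 and 8.71 in repaired muscle at 4 weeks, higher in 4 of 4 rabbits (log2FC 0.70, SE 0.47, adjusted p = 0.471). IL16, a chemoattractant for CD4+ cells, was the single member among 9 measured cytokines, chemokines and complement genes, of which 0 were called at 4 weeks and 1, IL16 itself, with the block. Its 4-week CPM was 3.34, 4.34, 6.56 and 5.01 in control and 13.4, 13.1, 17.8 and 5.59 in repaired muscle, higher in 4 of 4 rabbits with rabbit 68 inside the control range. The log2FC was 1.05 (SE 0.44, adjusted p = 0.248); the block gave an adjusted p of 0.0312, and the alternatives ran from 0.0312 to 0.521.

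Of 21 measured genes of the cytoskeleton and cell migration 7 were members, the largest number of any list; 0 were called at 4 weeks with or without the block, and 19 of 21 were above 0. MSN encodes moesin, which links actin to the cell membrane. It stood at 9.39, 11.1, 12.1 and 14.2 in control and 26.7, 22, 19.6 and 20.4 in repaired muscle at 4 weeks, every repaired muscle above every control (log2FC 0.65, SE 0.41, adjusted p = 0.430). TPM4, a tropomyosin of nonmuscle cells, was at 5.86, 9.04, 9.11 and 7.59 in control and 17.4, 13.4, 13.3 and 10.4 in repaired muscle at 4 weeks, also without overlap, and its 8-week ratio of 0.25 was the nearest to the limit among the named members. TUBB (a beta-tubulin) and STMN1 (stathmin, which destabilizes microtubules) had 4-week log2FC of 0.12 (SE 0.28) and 0.52 (SE 0.54). The log2FC of TUBB fell to -0.01 without the repair library of rabbit 63.

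Of 15 measured genes of the cell cycle and DNA replication 3 were members, and 0 were called at 4 weeks with or without the block. CDKN3, a phosphatase that acts on cyclin-dependent kinases, stood at 0.902, 3.32, 2.64 and 2.02 in control and 5.42, 12.9, 9.98 and 1.12 in repaired muscle at 4 weeks. It was higher in rabbits 63, 66 and 67 and lower in rabbit 68 (log2FC 1.20, SE 0.57, adjusted p = 0.304). DTL, a substrate receptor of the CUL4 ubiquitin ligase in S phase, had a 4-week log2 ratio of 0.86 ± 0.44 (SD, n = 4) and STMN1 one of 0.71 ± 0.48 (SD, n = 4).

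Among 14 measured lysosomal and phagocytosis genes 3 were members; 0 were called at 4 weeks, and with the block 1 (LIPA) was called higher. LIPA encodes lysosomal acid lipase, which frees cholesterol and fatty acids from engulfed lipid. At 1 week its CPM was 14.9, 21, 20.9 and 22 in control and 34.5, 55.6, 50.1 and 39 in repaired muscle. At 4 weeks it was 19.5, 14, 19 and 24.3 in control and 70.1, 53.9, 41.4 and 24.5 in repaired muscle. The sides did not overlap at either time, although the 4-week pair of rabbit 68 was level. The 4-week log2FC was 0.96 (SE 0.29, adjusted p = 0.125); with the block the adjusted p was 0.0454, and the alternatives ran from 0.0106 to 0.328. PPT1, a lysosomal thioesterase, stood at 35.5, 33.5, 44 and 43.8 in control and 74.5, 61.9, 68.8 and 56 in repaired muscle at 4 weeks, without overlap (log2FC 0.47, SE 0.17, adjusted p = 0.189). GLB1, the lysosomal beta-galactosidase, had a 4-week log2FC of 0.35 (SE 0.47).

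Some members with large early ratios belonged to none of these lists. ABCA6, an ABC transporter, stood at 300.1 CPM in the repaired muscle of rabbit 59 at 2 weeks, where the other 4 repaired muscles ran from 4.54 to 53.6, and its 2-week log2 ratio of 2.16 ± 2.26 (SD, n = 5) was 1.36 without that rabbit. AKAP12, a scaffold for protein kinase A, had 4-week values of 5.23, 5.35, 7.25 and 9.71 in control and 22, 14.8, 23.7 and 12.8 in repaired muscle, without overlap (log2FC 1.14, SE 0.54, adjusted p = 0.303). SELENBP1, a selenium-binding protein, stood at 13.7, 17.9, 34 and 27.6 in control and 55.3, 66.6, 106 and 27.7 in repaired muscle, and the pair of rabbit 68 was level (log2FC 1.11, SE 0.44, adjusted p = 0.215). CLIC1 (a chloride intracellular channel protein), STARD13 (a GTPase-activating protein), FRMD6 (a FERM-domain protein of Hippo signaling), TRO (trophinin), FAM114A1 and TNKS1BP1 (a tankyrase-binding protein) had 4-week log2FC of 0.77 (SE 0.42), 1.00 (SE 0.42), 0.87 (SE 0.52), 0.90 (SE 0.36), 0.56 (SE 0.57) and 0.78 (SE 0.34).

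None of the members was among the measured genes of the interferon response (11), denervation and regenerating muscle (10), contractile muscle (11), adipocytes and lipid storage (13), nerve and Schwann cells (2), secretory pathway (18), immediate early response (15) or mitochondrial energy metabolism (12). Of 2866 genes with a symbol and a mean CPM of at least 2, 162 were members, so lists this short would hold few. A further 182 members had no symbol to match. At 4 weeks 2 adipocyte genes, SCD and CD36, were called higher and 0 contractile genes were called.

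The 21 members called with the rabbit block, 11 of them with a symbol, were higher at 4 weeks by a log2FC of 0.68 to 3.54. Beside NID2, MCAM, ADAMTS5, LIPA and IL16 they include IDH1, NR1H3, CSAD, PLEKHG3, PHLDB2 and DLC1, which are named here after their values were seen. IDH1 encodes the cytosolic NADP-dependent isocitrate dehydrogenase, and its CPM at 4 weeks was 28.3, 14.5, 30.2 and 33.3 in control and 74.3, 56.1, 80.8 and 38 in repaired muscle. Every repaired muscle was above every control, with a log2FC of 0.96 (SE 0.25, adjusted p = 0.0854) and an adjusted p of 0.0230 with the block and 0.00914 to 0.364 over the alternatives. NR1H3, the oxysterol receptor LXR-alpha, had a log2FC of 1.21 (SE 0.26) with the block (adjusted p = 0.0234), and CSAD, an enzyme of taurine synthesis, one of 1.47 (SE 0.32) (adjusted p = 0.0234); neither passed without it (adjusted p = 0.171 and adjusted p = 0.195). Over the alternatives the adjusted p of NR1H3 ran from 0.0101 to 0.560 and that of CSAD from 0.0234 to 0.491. Of the 21, 11 were also called by edgeR, 18 by DESeq2, 6 with the estimated correlation within rabbits, and 13 without the repair library of rabbit 68.

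The edges of the group were not sharp. Just inside the early minimum lay LYST, a regulator of lysosome-related organelles, with log2 ratios of 0.93 at 1 week and 0.80 at 2 weeks, and ARHGAP23, a GTPase-activating protein, with 0.84 and 0.80. Just outside lay NPR3, the natriuretic peptide clearance receptor, with 1.43 and 0.796, and OSBPL7, an oxysterol-binding protein, with 0.797 and 0.85. At the 8-week limit TNKS1BP1 (0.249) and TPM4 (0.249) were inside, and STAT6, a transcription factor of interleukin-4 signaling (0.2501), and ASAP1, an Arf GTPase-activating protein (0.251), were outside. Of the members, 129 had a smaller early ratio under 0.9 and 166 an 8-week ratio above 0.15, while 158 genes missed the early minimum by up to 0.1 with the other criteria met and 236 early genes lay up to 0.1 above the 8-week limit.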

How the data were processed

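RNA from the posterior lateral region of the supraspinatus of both shoulders was sequenced. The authors aligned the reads with STAR and made expected counts per gene with RSEM; the deposited expected counts are neither whole nor scaled. One library, the 8-week repair library of rabbit 3, was left out as the authors did, leaving 33 libraries of 9220035 to 28395188 counts. Groups and rabbits came from the sample labels.

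The test was limma-voom (limma 3.58.1, edgeR 4.0.16 for TMM; R 4.3.3) on treatment-by-time groups, after the study's methods, on genes with a CPM over 1 in at least 1 library (12937 genes), with Benjamini-Hochberg adjustment over all of them and a call at an adjusted p under 0.05. The study also asked for an absolute log2FC above 1. Even so, it reports more genes changed at 4 weeks in each direction than were called here, from a smaller total of genes. The reason for this gap was not tested. Alternatives used edgeR's quasi-likelihood test and DESeq2 (1.42.0), both on rounded expected counts, a rabbit block, an estimated correlation within rabbits, quality weights, other filters and scalings, and each library left out in turn (those of 1, 2 and 8 weeks were added after seeing the data). Same-numbered libraries come from one animal: the correlation of the deviations of the 2 shoulders ran from 0.034 to 0.41 (median 0.25) over 16 rabbits, and 15 repair libraries lay closest to their own control. The scripts were tested on simulated counts.

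The members and gene lists were chosen with earlier results of these data known. Named members were the 20 with the largest mean early log2 ratio among those with a mean CPM of at least 5, any called at 4 weeks, up to 3 a list by mean CPM, and the 2 on each side of a threshold. One of the 51 so picked is not reported here. Symbols came from the study's supplementary tables; their comparison columns were not used. Rabbits are separate animals, but the main fit took the 2 shoulders of a rabbit as independent libraries. Its p-values therefore measure the spread between libraries within groups, pooled over all times. With the rabbit block they measure how the differences between the shoulders vary from rabbit to rabbit.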

Additional observations from a re-analysis of the deposited data

Results flagged for a closer look

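Of 61 groups of values set against their own range, 5 held a library far from the others, where chance flags about 1 in 20; all 5 were log2 ratios at 4 weeks. In the values below, the gap to the nearest rabbit is given as a share of the whole range. TPM4 was highest in rabbit 63, at 1.42 where the next was 0.52 (gap 0.893). The other 4 had rabbit 68 at the bottom: MCAM at 0.50 with the next at 1.58 (gap 0.887), SELENBP1 at 0.0054 with the next at 1.62 (gap 0.835), CDKN3 at -0.51 with the next at 1.59 (gap 0.927) and CRTAP at -0.47 with the next at 0.68 (gap 0.906). The members' median log2 ratio was 0.05 in rabbit 68 and 1.00 over the other 3 rabbits of 4 weeks.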

How the results depend on the processing

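The number of members was 344 by the rule as stated, 601 with the pair of rabbit 3, 113 on TMM-scaled CPM, 214 with a minimum mean CPM of 5, 119 by the median over rabbits, 763 and 134 with an early minimum of 0.6 and 1.0, 40 and 815 with an 8-week limit of 0 and 0.5, and 96 (without rabbit 59) to 473 (without rabbit 4) when each rabbit was left out. The other 4 settings tried moved it by less than 1.5 times (235 to 419). Members called at 4 weeks were 0 in the limma-voom fit, 18 with edgeR, 37 with DESeq2, 21 with the rabbit as a block, 7 with the rabbit correlation and 64 with quality weights, and 0 to 19 when each library was left out (19 without the repair library of rabbit 68 or of rabbit 59). Genes called higher were 10, against 5 with all 34 libraries, 42 without a filter, 221 with edgeR, 410 with DESeq2, 235 with the block, 95 with the correlation, 617 with quality weights, 0 with the 4-week libraries alone, 1 with the 2- and 4-week libraries alone, and 2 to 218 on leaving out a library. Genes called lower were 6, against 0 with all 34 libraries, 11 with CPM over 1 in at least 5 libraries, 106 with edgeR, 265 with DESeq2, 129 with the block, 94 with the correlation, 415 with quality weights, 0 with the 4-week libraries alone, 0 with the 2- and 4-week libraries alone, and 0 to 158 on leaving out a library. The members' median log2FC of 0.68 stayed between 0.59 and 0.82 on leaving out a library and between 0.65 and 0.69 otherwise. Of 2295 values for the 51 named genes, 2256 kept their direction and their side of the threshold, 35 passed it where they had not, and 4 changed sign when a 4-week library was left out: ADAMTS9 without rabbit 67 repair (0.053) and without rabbit 68 control (0.049; range over 4-week leave-outs -0.31 to 0.053), TUBB without rabbit 63 repair (-0.012; range -0.012 to 0.26) and TGFB1 without the same library (-0.21; range -0.21 to 0.34). The cause was not tested. Of the 344 members, 214 had a mean CPM of at least 5, and fewer counts stand behind the other members.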
